A study of Mus musculus with 27 samples.

Results

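The 10 genes described here encode secreted glycoproteins of the extracellular matrix (ECM): the thrombospondins Thbs1, Thbs2, Thbs3 and Thbs4, tenascin C (Tnc), periostin (Postn), fibronectin (Fn1) and the SPARC relatives Sparc, Sparcl1 and Smoc2. They were chosen by name, 10 of the 53379 genes in the count table, and their RNA was followed in 27 bulk libraries of mouse hepatic stellate cells (HSCs). HSCs are the vitamin A storing mesenchymal cells of the liver, which turn into matrix-producing cells after injury. All mice were male Balb/c, and the cells were taken after liver perfusion by sorting for the ultraviolet fluorescence of their retinoid, with no culture before RNA extraction. Healthy mice of 10 to 12 weeks (n = 4) received no injection, also none of the mineral oil that carried the toxin in the other groups. The acute groups, of the same age, received 1 intraperitoneal injection of carbon tetrachloride (CCl4, a hepatocyte toxin) at 0.5 µL per g and were collected 24 h (n = 3), 72 h (n = 4) and 7 d (n = 4) later. The chronic groups, 8 to 10 weeks old, received 8 injections of the same dose over 4 weeks and were collected 24 h, 72 h or 14 d after the last (n = 4 each). Injury by injection thus stands against no injection at all, and the age at the start differed between the chronic and the other groups. The study describes each repeat as a separate experiment and does not say whether livers were pooled, so the p-values measure the spread between these libraries.

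Matricellular proteins sit in the matrix without being its main scaffold, and they alter how cells attach to collagen and how growth factors reach their receptors. Thrombospondin 1 releases active TGF-beta, the main fibrogenic cytokine of the liver, from its latent complex, and binds CD47 and CD36. Tenascin C and periostin are largely produced in development and in wounds, fibronectin is laid down as the provisional matrix on which collagen assembles, and SPARC binds collagen during its secretion and deposition. In injured liver HSCs are a known source of several of them.

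Total counts per library lay between 6.31 M and 13.1 M. In 8 libraries, namely replicates 1 and 2 of the chronic 24 h and chronic 72 h groups and all 4 chronic 14 d libraries, the total was at most 7.58 M, against at least 10.8 M in the other 19. The 12 HSC markers looked up (among them Lrat, Reln, Lhx2 and Des) were detected in every group, with summed levels of 26900 to 46800 CPM (counts scaled to library size) in healthy and 15000 to 33200 in injured libraries. The sum includes Dcn, with a mean of 17600 CPM in healthy libraries. By the rule for calls given below, 5 of the 12 were lower than healthy in each acute group. In the chronic groups 7 were lower at 24 h (and 1 higher), 6 at 72 h and 1 at 14 d. RNA of other cells was present too. The 10 hepatocyte markers summed to 635 to 4390 CPM in healthy and 61.8 to 350 in acute 24 h libraries, and the 10 macrophage markers to 153 to 616 CPM in healthy and 4200 to 10700 in acute 7 d libraries. In such bulk libraries a larger share of cells that express a gene and more RNA per cell cannot be told apart.

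Levels between genes are compared in TPM, that is, counts per base of exon scaled to the same sum in every library. Sparc had the highest level of the 10 genes in 6 of the 7 groups, with a mean of 1300 TPM ± 524 (SD, n = 4) in healthy and 3070 ± 616 (n = 4) in acute 7 d libraries, where it ranked 30 among 18741 genes. Sparcl1 followed in healthy HSCs at 806 TPM ± 34.7, rank 134. Smoc2 (114 TPM ± 4.28), Postn (97.2 ± 18.4), Fn1 (88.2 ± 22) and Thbs2 (72 ± 13.8) formed a middle tier, and Thbs1 stood at 40.6 ± 13.1. Tnc (9.05 ± 3.59) and Thbs3 (2.88 ± 1.13) were low, and Thbs4 had no count. The order changed most in chronic 24 h libraries, where Thbs1 was the highest of the 10 genes at 2410 TPM ± 681 (rank 42, from rank 3178 in healthy) and Tnc reached 621 ± 184 (rank 179, from 8967). With the longest transcript in place of all exon bases, Thbs1 (2120 TPM ± 583) fell below Sparc (3040 ± 1310) in that group. All 10 genes took up 0.407% ± 0.0707 (SD, n = 4) of counts in healthy and 1.5% ± 0.324 (n = 4) in chronic 24 h libraries, with ranges of 0.311% to 0.47% and 1.2% to 1.79% that lie apart.

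**Figure D1:**
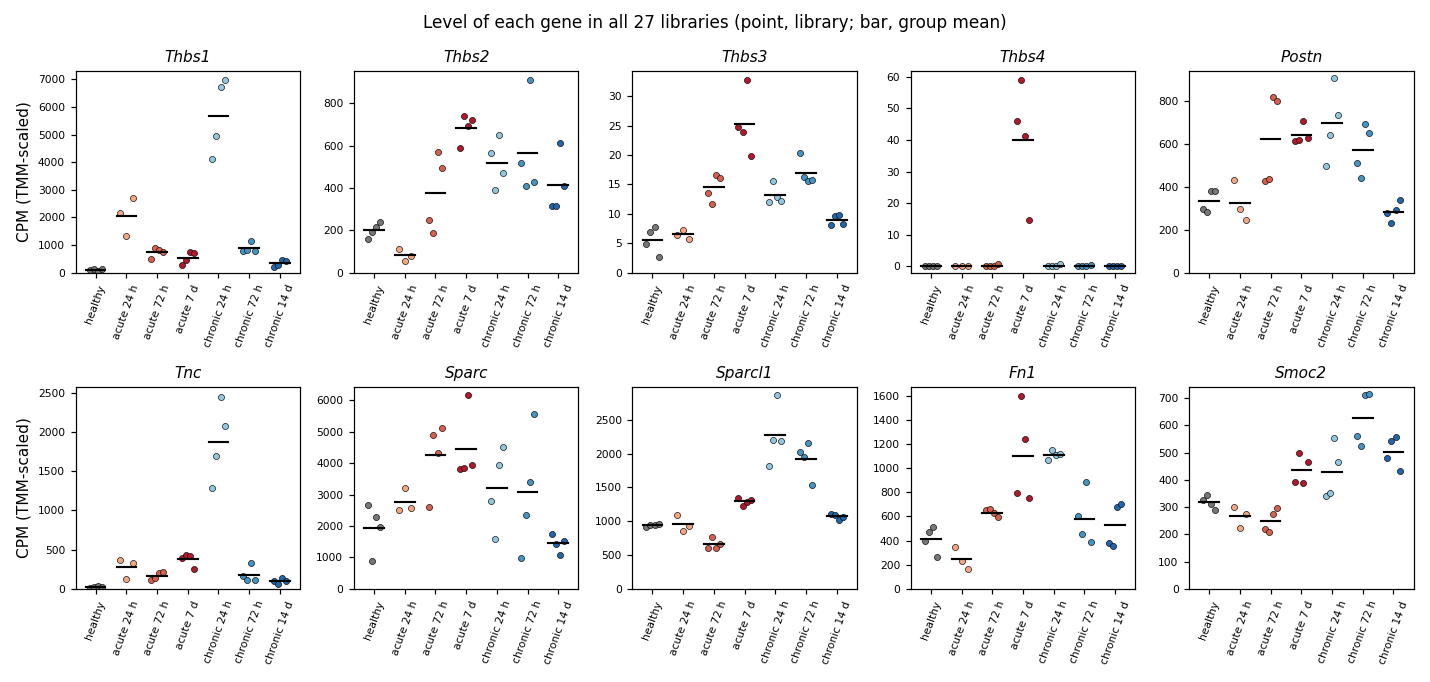
Level of each of the 10 genes (y axis, TMM-scaled CPM, linear) in every library (points) of the 7 groups (x axis), with the group mean as a bar. Thbs1 and Tnc stand highest in chronic 24 h libraries (4110 to 6970 and 1280 to 2450 CPM), Thbs4 has counts above 11 only in the 4 acute 7 d libraries, and Sparc shows libraries far below the others of their group in healthy (885 CPM) and chronic 72 h (981 CPM) HSCs.

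Each group was set against healthy HSCs to ask which of the genes respond to injury. A gene was called changed at an adjusted p below 0.05 (edgeR quasi-likelihood test, Benjamini-Hochberg over 18758 genes) and a change above 2-fold. All 10 genes entered the test, but Thbs4 passed the filter on low counts only through the acute 7 d libraries, so it is described by its counts and left out of the following counts of called genes, which cover the other 9. After 24 h of acute injury 2 genes rose (Thbs1, Tnc) and 1 fell (Thbs2), where 9.41% of all genes were called higher and 12.5% lower. After 72 h 4 rose (Thbs1, Thbs3, Tnc, Sparc) where 8.23% of all genes were called higher and 4.33% lower, and after 7 d 6 rose (Thbs1, Thbs2, Thbs3, Tnc, Sparc, Fn1) where 9.23% were called higher and 5.64% lower. In the chronic groups 7 rose at 24 h (Thbs1, Thbs2, Thbs3, Postn, Tnc, Sparcl1, Fn1; background 11.2% higher and 8.11% lower), 5 at 72 h (Thbs1, Thbs2, Thbs3, Tnc, Sparcl1; 7.88% and 4.20%) and 3 at 14 d (Thbs1, Thbs2, Tnc; 4.55% and 1.17%), with none lower. The median log2 fold change of the 9 genes other than Thbs4 was 0.02 in acute 24 h, 0.90 in acute 72 h, 1.41 in acute 7 d, 1.27 in chronic 24 h, 1.02 in chronic 72 h and 0.66 in chronic 14 d libraries, while the median of all genes lay between -0.12 (acute 24 h) and 0.01. Among the libraries above 9 M alone, which leave only replicates 3 and 4 of chronic 72 h, Postn (1.04), Sparc (1.23) and Smoc2 (1.20) were called there as well. The share of all genes called was not computed for that setting. The 6 comparisons share the healthy libraries, so a low or high healthy library moves them all.

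**Figure D2:**
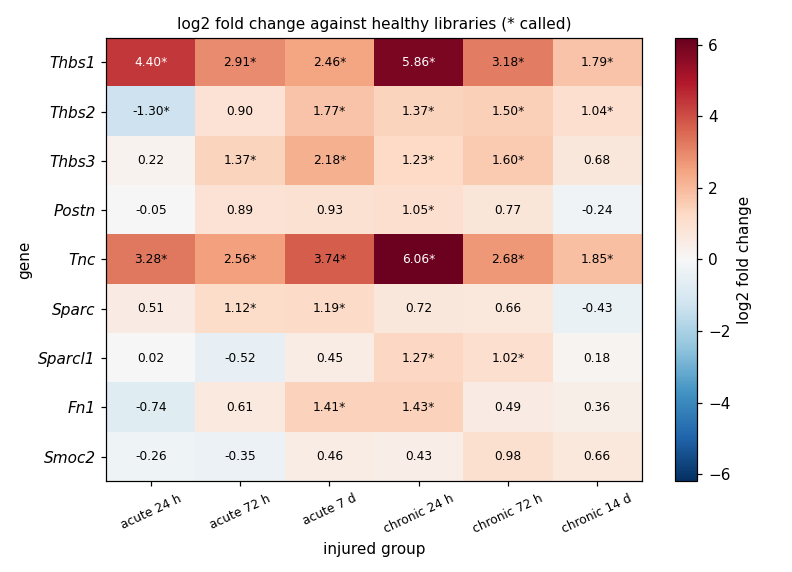
Log2 fold change of 9 genes (rows; Thbs4 left out because its healthy libraries hold no count) in each injured group (columns) against healthy HSCs, with an asterisk on called changes. Thbs1 and Tnc are called in all 6 columns with maxima of 5.86 and 6.06 in chronic 24 h, and Smoc2 in none.

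Thbs1 (ENSMUSG00000040152, chromosome 2, 118111876 to 118127133, plus strand, GRCm38) encodes the trimeric thrombospondin 1. Its level was 79.6, 114, 66.5 and 133 CPM in the healthy libraries and 2160, 1320 and 2710 in acute 24 h libraries, which is 21.1-fold higher (log2 4.40 ± 0.37 SE, adjusted p = 1.28e-08). In chronic 24 h libraries it reached 4110, 4960, 6720 and 6970 CPM, a rise of 5.86 ± 0.38 on the log2 scale (adjusted p = 1.53e-10). No library of any injured group reached down to the healthy range. The later groups ranked below, at 781 to 1150 CPM in chronic 72 h, 494 to 899 in acute 72 h, 267 to 748 in acute 7 d and 205 to 444 in chronic 14 d libraries. Neighbours in this order differed at its top (chronic over acute 24 h by 1.46, acute 24 h over chronic 72 h by 1.22) and at its foot (chronic 14 d over healthy by 1.79), whereas the 4 groups in between overlapped from one to the next. From chronic 24 h Thbs1 fell by 2.68 on the log2 scale to 72 h and by 4.07 to 14 d, and from acute 24 h to 7 d it fell by 1.93 (adjusted p = 8.99e-05). A noncoding RNA gene on the opposite strand, Gm29233, shares exon bases with Thbs1. Strand of the counting is not stated, and Gm29233 had 0.638% as many counts as Thbs1.

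Tnc (ENSMUSG00000028364, chromosome 4, 63959785 to 64047015, minus strand) encodes tenascin C, a large glycoprotein of wounds and developing tissue. Healthy libraries held 13.6, 30, 40.8 and 27.9 CPM. At acute 24 h the values were 371, 122 and 327 CPM (log2 3.28 ± 0.42 SE, adjusted p = 3.12e-06), and at chronic 24 h 1280, 1690, 2450 and 2080 CPM (6.06 ± 0.46, adjusted p = 1.83e-09), 66.8-fold above healthy. Each injured group lay above the healthy range. In contrast to Thbs1, Tnc was second highest in acute 7 d libraries (256 to 437 CPM), which overlapped acute 24 h (difference 0.46 ± 0.41, adjusted p = 0.387). The gap between chronic 24 h and the next group was 2.32 (adjusted p = 3.05e-04), and the level fell by 3.38 to chronic 72 h and it fell by 4.22 to chronic 14 d. In chronic 14 d libraries 64.5 to 137 CPM remained, 1.85 above healthy on the log2 scale (adjusted p = 0.00369). All 4 of these libraries are of the lower depth class, so depth and group cannot be told apart there. With depth class as a term the difference was 2.48 (adjusted p = 0.007).

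Thbs2 (ENSMUSG00000023885, chromosome 17, 14665500 to 14694235, minus strand), the other trimeric thrombospondin, does not activate TGF-beta and is known for its role in collagen fibril structure and in restraining vessel growth. It moved the other way from Thbs1 after a single injection. Healthy libraries held 159, 190, 216 and 237 CPM, and the acute 24 h libraries 110, 54.3 and 80.3, a fall by 1.30 ± 0.35 (SE) on the log2 scale (adjusted p = 0.0061) with no overlap. Its level then stood at 250, 187, 571 and 492 CPM at 72 h (0.90 ± 0.32, below 2-fold) and at 588, 740, 691 and 720 CPM at 7 d (1.77 ± 0.32, adjusted p = 3.29e-04). From acute 24 h to 7 d the rise was 3.07 ± 0.38 (adjusted p = 1.62e-06). Chronic libraries held 388 to 651 CPM at 24 h (1.37), 410 to 910 at 72 h (1.50) and 313 to 612 at 14 d (1.04 ± 0.32, adjusted p = 0.0431). The 5 groups from acute 7 d to acute 72 h formed an order in which no neighbours differed. The call at 14 d was lost on leaving out any 1 of 5 libraries (healthy replicates 1, 2 and 3, chronic 14 d replicates 3 and 4), with values from 0.83 to 1.09, and with depth class as a term (1.42, adjusted p = 0.066).

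Thbs3 (ENSMUSG00000028047, chromosome 3, 89215180 to 89226837, plus strand) and Thbs4 form the pentameric branch of the family, found mainly in cartilage, bone, tendon and muscle. Thbs3 was low throughout. It stood at 4.9, 6.92, 7.84 and 2.69 CPM in healthy and at 24.7, 23.9, 32.8 and 19.9 CPM in acute 7 d libraries (log2 2.18 ± 0.23 SE, adjusted p = 7.05e-07). The 2 groups lay apart, and acute 7 d had the highest mean of the 7, though it overlapped chronic 72 h (difference 0.58, not called). The calls at acute 72 h (11.7 to 16.6 CPM, 1.37), chronic 24 h (12 to 15.5, 1.23) and chronic 72 h (15.5 to 20.4, 1.60) were smaller, and acute 24 h (5.79 to 7.29, 0.22) and chronic 14 d (8.1 to 9.86, 0.68, adjusted p = 0.068) were not called. Thbs3 shares exon bases with Mtx1 on the opposite strand, a mitochondrial import gene that had 151% as many counts as Thbs3. Without strand, reads in the shared bases cannot be assigned to either gene, so these levels are uncertain.

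Thbs4 (ENSMUSG00000021702, chromosome 13, 92751590 to 92794818, minus strand) had more than 11 counts in no group but acute 7 d. The acute 7 d libraries held 567, 719, 512 and 191 counts (45.9, 59, 41.2 and 14.6 CPM). All healthy, acute 24 h and chronic 14 d libraries held 0, and the highest of the other libraries held 11 counts (acute 72 h replicate 4), 8 (chronic 24 h replicate 4) and 6 (chronic 72 h replicate 4). The groups did not overlap. Against 3 counts per library, the limit that a count of 0 allows, the acute 7 d mean was at least 149-fold higher than healthy, at least 153-fold higher than acute 24 h and at least 100-fold higher than chronic 14 d. No test is given, since the gene passed the filter through the group in which it was high. At 32.4 TPM ± 15.5 it ranked 4197 of 18741 genes there. The acute 7 d libraries were also those with the most macrophage RNA: 9 of 10 macrophage markers rose there against healthy (median log2 2.93), with Lyz2 at 3470 to 8580 CPM against 24.6 to 113, and of 5 cholangiocyte markers only Spp1 was called, which HSCs and macrophages also express. Of 7 tested portal fibroblast and mesothelial markers 4 rose there (median log2 1.45), to a sum of 149 to 169 CPM against 27.4 to 46.8 in healthy. That sum was higher still in chronic 72 h libraries (156 to 318 CPM), which held at most 6 Thbs4 counts. The part of these cells in the Thbs4 counts was not tested.

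Postn (ENSMUSG00000027750, chromosome 3, 54361109 to 54391037, plus strand) encodes periostin, a fasciclin-domain protein that binds collagen I, tenascin C and fibronectin. It was already present in healthy HSCs at 295, 284, 383 and 383 CPM and changed little in comparison with Tnc. Its highest values were 500, 643, 909 and 735 CPM in chronic 24 h libraries (log2 1.05 ± 0.23 SE, adjusted p = 0.00129), followed by acute 7 d (615 to 707, 0.93), acute 72 h (429 to 822, 0.89) and chronic 72 h (440 to 696, 0.77), all with an adjusted p of at most 0.0199 and every library above the healthy range, but below 2-fold. These 4 groups did not differ between neighbours. Acute 24 h (244 to 433) and chronic 14 d (230 to 340) overlapped healthy. Leaving out healthy replicate 1 or 2 or chronic 24 h replicate 3 took the chronic 24 h value below 2-fold (0.90 to 0.99). From chronic 24 h to 14 d Postn fell by 1.29 (adjusted p = 3.23e-04).

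Fn1 (ENSMUSG00000026193, chromosome 1, 71585520 to 71653200, minus strand) encodes fibronectin. Its lowest level was in acute 24 h libraries, at 346, 230 and 168 CPM against 400, 474, 516 and 263 in healthy (log2 -0.74 ± 0.32 SE, adjusted p = 0.0757), a difference that passed the test (-1.06, adjusted p = 0.0319) without acute 24 h replicate 1. At acute 72 h it stood at 592 to 659 CPM (0.61, adjusted p = 0.135). In acute 7 d libraries 798, 1600, 1240 and 756 CPM were counted (1.41 ± 0.29, adjusted p = 0.00111), and in chronic 24 h libraries 1070, 1150, 1110 and 1120 CPM (1.43 ± 0.29, adjusted p = 6.34e-04). The acute 7 d libraries spread widely, with a coefficient of variation of 36.5%, and the chronic 24 h libraries little, with 3.05%. Fn1 rose by 2.15 from acute 24 h to 7 d, and from chronic 24 h it fell by 1.07 to 14 d (adjusted p = 0.00962), a call that was lost without chronic 14 d replicate 1 (-0.94) or 2 (-0.88). Hepatocytes also produce fibronectin, and the 10 hepatocyte markers summed to 635 to 4390 CPM in healthy, 61.8 to 350 at acute 24 h, 1080 to 2520 at acute 72 h and 1990 to 3640 at acute 7 d. In the chronic groups they summed to 645 to 3180 CPM at 24 h, 2470 to 4200 at 72 h and 2040 to 9820 at 14 d. Their part in the Fn1 level was not tested.

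Sparc (ENSMUSG00000018593, chromosome 11, 55394500 to 55423183, minus strand), a collagen-binding protein and the most abundant of the 10 genes in healthy HSCs, varied widely between replicates. Healthy libraries held 2660, 885, 2280 and 1970 CPM, acute 72 h libraries 2620, 4910, 4340 and 5120 (log2 1.12 ± 0.39 SE, adjusted p = 0.043) and acute 7 d libraries 3800, 3850, 6160 and 3950 (1.19 ± 0.39, adjusted p = 0.031). The acute 7 d range lay above the healthy range, and the acute 72 h range overlapped it. Without healthy replicate 2 both calls were lost (0.88 and 0.95, adjusted p = 0.135 and 0.107). The acute 72 h call was also lost without healthy replicate 3 or 4 or acute 72 h replicate 2, 3 or 4 (values 1.02 to 1.21), and that at 7 d without acute 7 d replicate 3 (0.99). Chronic 24 h libraries held 1590 to 4500 and chronic 72 h libraries 981 to 5560 CPM, neither of them called in the model of all libraries. With depth class as a term Sparc was called in both (1.24 and 1.08). The lowest library of these groups, chronic 24 h replicate 2 at 1590 and chronic 72 h replicate 1 at 981 CPM, belongs to the lower depth class in each case. From chronic 24 h to 14 d Sparc fell by 1.14 (adjusted p = 0.0381), and this call was lost on leaving out 1 of 5 libraries (replicates 3 and 4 of chronic 24 h, chronic 14 d replicates 2, 3 and 4, values -1.11 to -0.89) and with the depth term (-0.48).

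Sparcl1 (ENSMUSG00000029309, chromosome 5, 104079111 to 104113733, minus strand), also named hevin, was the steadiest of the 10 genes in healthy HSCs, with 920, 949, 949 and 955 CPM. Acute 72 h libraries held less, 601, 771, 605 and 659 CPM, a difference of -0.52 ± 0.13 (SE) on the log2 scale (adjusted p = 0.00704) that left the groups apart but fell short of 2-fold. Chronic 24 h libraries held 1810, 2200, 2870 and 2190 CPM (1.27 ± 0.14, adjusted p = 2.33e-07) and chronic 72 h libraries 2020, 1950, 2150 and 1540 CPM (1.02 ± 0.14, adjusted p = 1.04e-05), and both rose clear of all healthy libraries. The chronic 72 h value was 0.99, below 2-fold, without chronic 72 h replicate 1. Acute 7 d (1220 to 1350, 0.45) and chronic 14 d (1020 to 1110, 0.18) lay above healthy in every library without a call. Sparcl1 fell by 1.08 from chronic 24 h to 14 d (adjusted p = 4.97e-06), a change that came to -0.95 without chronic 24 h replicate 3. Endothelial cells also express Sparcl1. The 8 sinusoidal endothelial markers summed to 119 to 400 CPM in healthy, 31.4 to 114 in acute 72 h, 56.6 to 186 in chronic 24 h and 168 to 256 in chronic 72 h libraries. Of the 8, 4 were lower at chronic 24 h and 7 at acute 72 h against healthy, and none was higher in either. Their part in the Sparcl1 level was not tested.

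Smoc2 (ENSMUSG00000023886, chromosome 17, 14279506 to 14404790, plus strand) encodes a SPARC-related modular protein with calcium-binding domains. It was called in none of the 6 comparisons with healthy HSCs in the model of all libraries (edgeR), with an unadjusted p below 0.05 in 5 of them and 0 called by DESeq2. It stood at 327, 343, 311 and 291 CPM in healthy and at 560, 524, 711 and 715 CPM in chronic 72 h libraries (log2 0.98 ± 0.17 SE, adjusted p = 1.75e-04), its highest group. All chronic 72 h libraries lay above all healthy libraries, with a value just under 2-fold that passed it without healthy replicate 2 (1.02) or chronic 72 h replicate 1 (1.03) or 2 (1.08). The chronic 72 h value also passed with library size alone (1.10) or no filter (1.01). Acute 24 h (225 to 302) and acute 72 h (210 to 297) libraries had the lowest levels, and chronic 14 d libraries (433 to 558, 0.66) remained above the healthy range. With depth class as a term Smoc2 was called at chronic 72 h (1.21) and at chronic 14 d (1.14, adjusted p = 9.06e-04), where all libraries are of the lower depth class. The mean of Smoc2 was thus highest 72 h and 14 d after the last of 8 injections, when Thbs1 and Tnc had fallen from their 24 h level. Neighbours in this order overlapped and were not called, neither chronic 72 h over 14 d (0.32) nor chronic 14 d over acute 7 d (390 to 499 CPM, difference 0.20).

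To see whether repeated injury differs from a single injury at the same hour, chronic and acute libraries were compared. At 24 h 7 genes were higher after 8 injections (Thbs1, Thbs2, Thbs3, Postn, Tnc, Sparcl1, Fn1) and none lower, where 10.9% of all genes were called higher and 3.05% lower. The largest differences were in Tnc (2.78 ± 0.45 SE, adjusted p = 9.21e-05), Thbs2 (2.67 ± 0.37, adjusted p = 2.08e-05) and Fn1 (2.17 ± 0.33, adjusted p = 6.04e-05), the last 2 of which were at their lowest at acute 24 h. Sparc differed by 0.21 ± 0.42. Smoc2 was higher by 0.69 ± 0.18 (adjusted p = 0.00798), below 2-fold, with no overlap between the groups. The Thbs3 (1.01) and Postn (1.10) calls rested on a value close to 2-fold, and fell to 0.92 without chronic 24 h replicate 2 and to 0.93 without acute 24 h replicate 3, respectively. Thbs3 was also lost without acute 24 h replicate 3 (0.94) or chronic 24 h replicate 4 (0.99), and Postn without chronic 24 h replicate 3 (0.94). Macrophage markers were higher in chronic than in acute 24 h libraries for 9 of 10 genes and hepatocyte markers for 7 of 10, and their part in these differences was not tested. At 72 h only 2 genes were called (background 5.11% higher and 4.01% lower), both of the SPARC family: Sparcl1 (1.54 ± 0.14, adjusted p = 1.75e-07) and Smoc2 (1.33 ± 0.17, adjusted p = 1.13e-05). Of the 8 sinusoidal endothelial markers 5 were also higher in chronic than in acute 72 h libraries (median log2 1.52), as were 6 of 10 macrophage, 3 of 7 tested portal fibroblast and mesothelial, 3 of 5 cholangiocyte and 2 of 10 hepatocyte markers, and their part in these differences was not tested. Thbs1 (0.26 ± 0.31), Tnc (0.12 ± 0.37), Thbs3 (0.23 ± 0.22), Postn (-0.12 ± 0.23) and Fn1 (-0.12 ± 0.29) had differences within 1 SE or little above it, and Thbs2 one of 0.59 ± 0.32. Sparc differed by -0.47 ± 0.39 (adjusted p = 0.471).

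The step from 24 h to 72 h was then compared between the courses within the same model. This comparison was not planned and was chosen after the data had been seen. Fn1 changed by 1.35 in the acute and by -0.93 in the chronic course, a difference of -2.29 ± 0.43 (SE, log2, adjusted p = 0.00129). Thbs2 changed by 2.20 and 0.13 (difference -2.07 ± 0.47, adjusted p = 0.00559), and Postn by 0.94 and -0.28 (-1.21 ± 0.34, adjusted p = 0.0226). For Tnc the level dropped in both courses, by 0.72 and by 3.38 (-2.66 ± 0.56, adjusted p = 0.00322). Of the 9 genes other than Thbs4 these 4 were called, where 8.74% of all genes were, and the test uses the same libraries as the 24 h and 72 h comparisons above. Among libraries above 9 M Tnc and Fn1 remained called, while Thbs2 (-1.87, adjusted p = 0.066) and Postn (-1.14, adjusted p = 0.107) had differences of similar size, from fewer libraries, that did not pass the test. The Postn difference was lost without any 1 of 7 libraries (-1.16 to -0.94). For Thbs1 the step was -1.48 in the acute and -2.68 in the chronic course, and the difference did not pass the threshold (-1.20 ± 0.46, adjusted p = 0.101).

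**Figure D3:**
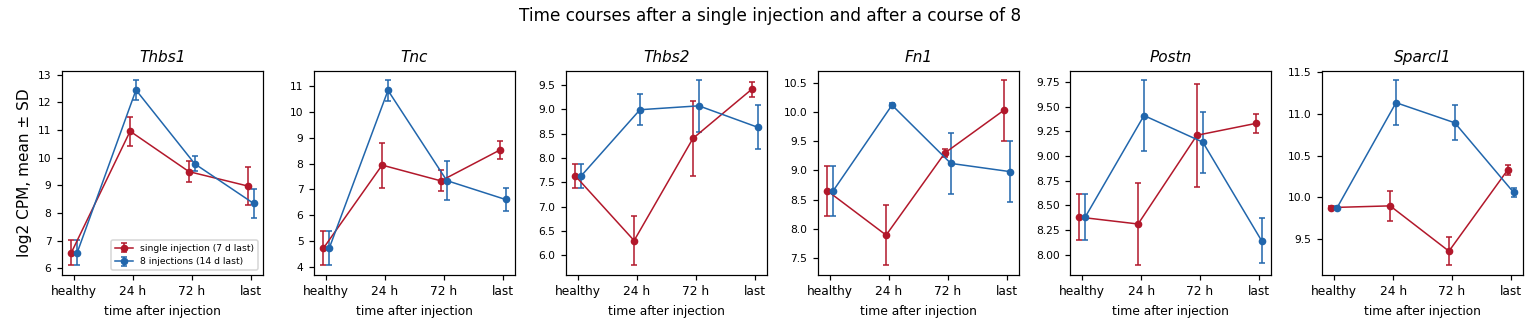
Mean log2 CPM ± SD (y axis) of 6 genes in healthy HSCs and at 24 h, 72 h and the last time point (x axis), which is 7 d after a single injection (red) and 14 d after 8 injections (blue). At 24 h the blue points lie above the red for all 6 genes, and at 72 h the error bars of the 2 courses overlap for 5 of them, while Sparcl1 stays 1.54 higher in the chronic course.

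Recovery was followed within each course. From chronic 24 h to 72 h only Thbs1 and Tnc were called, both lower (background 4.72% higher and 3.65% lower). By 14 d 6 genes had fallen from chronic 24 h (Thbs1, Postn, Tnc, Sparc, Sparcl1, Fn1; background 6.65% higher and 6.11% lower) and none had risen, while Thbs2 (-0.33 ± 0.31 SE), Thbs3 (-0.55 ± 0.23) and Smoc2 (0.23 ± 0.16) had not passed the test. With library size alone as the scale the count of 6 became 3 (Thbs1, Postn, Tnc). In the acute course, from 24 h to 7 d, 3 of the 9 genes rose (Thbs2, Thbs3, Fn1) and Thbs1 fell (background 17.8% higher and 9.24% lower). Postn was at 0.98 ± 0.25 (adjusted p = 0.00364), under 2-fold. Smoc2 (0.72 ± 0.18, adjusted p = 0.0029) and Sparcl1 (0.43 ± 0.15, adjusted p = 0.0206) were also higher by less than 2-fold. Tnc (0.46 ± 0.41) and Sparc (0.68 ± 0.43) did not pass the test.

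Across the 27 libraries the 10 genes did not move as 1 block. Thbs1 and Tnc had the highest pairwise correlation (Pearson r = 0.88, log2 CPM, n = 27 libraries, which share groups and processing), and Thbs2 was nearest to Fn1 (0.78) and barely related to Thbs1 (0.13). Sparcl1 and Smoc2 had an r of 0.69, whereas Sparc, their relative, had -0.02 and -0.12 with them. Among all other genes whose mean log2 CPM was 3 or more, the closest to Thbs1 were Axl (0.92), Tgfb3 (0.92) and Bdnf (0.91), and Axl was also the closest to Tnc (0.95). Thbs2 was closest to the Wnt receptor gene Fzd7 (0.95) and to the collagen-binding proteoglycan gene Fmod (0.94). Thbs3 and Postn were nearest to fibrillar collagens, Thbs3 to Col1a1 (0.92) and Col3a1 (0.90) after Fam171a2 (0.93), and Postn to Col1a2 (0.88). Fn1 was closest to Col6a3 (0.89), Smoc2 to Gas6 (0.94) and Sparcl1 to Tbc1d20 (0.84). For Thbs4 the closest gene was Bmp1 (0.86). Thbs4 held 191 to 719 counts in acute 7 d libraries and at most 11 in any other library. Its r therefore mainly sets the acute 7 d libraries against the rest and cannot show likeness within the other groups. Sparc had as its 3 nearest genes 1110012L19Rik (0.82), Eef1akmt1 (0.77) and Tma7 (0.76).

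**Figure D4:**
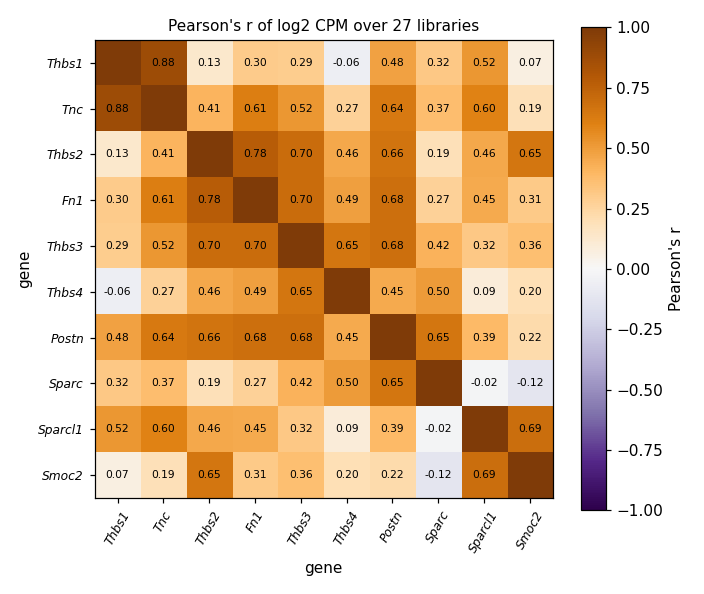
Pearson's r of log2 CPM between each pair of the 10 genes (rows and columns) over 27 libraries, as colour and number. Values for Thbs4 mainly set the acute 7 d libraries against the rest, since most other libraries held no Thbs4 count. Thbs1 pairs with Tnc (0.88), Thbs2 with Fn1 (0.78) and Sparcl1 with Smoc2 (0.69), and Sparc is near 0 with Sparcl1 (-0.02).

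Promoter windows of RefSeq (GRCm38.p6) were at hand for 6 of the 10 genes: Thbs2, Thbs3, Thbs4, Postn, Tnc and Sparc. They are shown for 4 genes with different courses, each as the 250 bases before a transcription start, 5′ to 3′ on the strand of the gene. Tnc, called in all 6 groups as Thbs1 was, is set beside the gene restricted to acute 7 d (Thbs4). The other genes are the one that fell at acute 24 h (Thbs2) and one that was already high in healthy HSCs (Postn). Capitals mark TATAA (or TTATA, its complement) and, in Thbs4, CATTCC, the complement of the TEAD motif GGAATG. The windows lie at chr4:64046937-64047186 (Tnc, minus strand), chr3:54360857-54361106 (Postn, plus), chr17:14694263-14694512 (Thbs2, minus) and chr13:92794819-92795068 (Thbs4, minus).
Tnc: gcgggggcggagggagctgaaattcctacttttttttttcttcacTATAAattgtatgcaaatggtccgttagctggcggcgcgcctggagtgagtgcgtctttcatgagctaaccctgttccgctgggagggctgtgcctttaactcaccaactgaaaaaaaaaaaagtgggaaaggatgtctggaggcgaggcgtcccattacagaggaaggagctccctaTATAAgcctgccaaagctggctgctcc
Postn: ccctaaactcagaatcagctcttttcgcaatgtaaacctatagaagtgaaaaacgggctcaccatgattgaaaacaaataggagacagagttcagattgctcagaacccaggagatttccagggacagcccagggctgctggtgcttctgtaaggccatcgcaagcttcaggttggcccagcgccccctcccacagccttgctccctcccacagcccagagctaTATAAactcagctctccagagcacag
Thbs2: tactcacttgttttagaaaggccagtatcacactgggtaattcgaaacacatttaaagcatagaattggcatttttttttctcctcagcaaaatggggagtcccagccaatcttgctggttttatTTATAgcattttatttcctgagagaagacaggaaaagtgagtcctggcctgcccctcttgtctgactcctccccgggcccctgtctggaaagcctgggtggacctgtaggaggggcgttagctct
Thbs4: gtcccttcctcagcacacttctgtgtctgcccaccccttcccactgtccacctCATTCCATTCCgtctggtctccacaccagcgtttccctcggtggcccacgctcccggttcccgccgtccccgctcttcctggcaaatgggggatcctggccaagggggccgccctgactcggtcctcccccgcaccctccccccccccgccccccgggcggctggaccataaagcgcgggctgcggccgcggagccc
TATAA began 27 bases before the start in Tnc and 26 before it in Postn. A second match lay 205 bases before the Tnc start, the match in Thbs2 was on the other strand at -125, and Thbs4 held none. Of all 32851 windows of 300 bases (250 before to 50 after a start) 24.9% held TATAA on either strand, and 14.7% held GGAATG, which overlapped itself at -197 and -192 in Thbs4 and was in no other of the 8 windows of these genes. The AP-1 motif TGANTCA was in none of them, against 7.81% of all windows. Matches of letters describe these windows only and do not show binding.

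Other genes of the same system were counted in lists. Of 20 further matricellular genes 13 were tested, and 8 of them rose and 2 fell in chronic 24 h libraries (median log2 1.14), against 4 and 2 in acute 24 h (-0.01) and 3 and 2 in chronic 14 d (-0.13). Of all genes 11.2% were called higher and 8.11% lower at chronic 24 h. The shares were 9.41% and 12.5% at acute 24 h and 4.55% and 1.17% at chronic 14 d. The CCN genes, which encode small cell-adhesive matricellular proteins, included Ccn2 (connective tissue growth factor), which rose by 3.70 on the log2 scale at acute 24 h and by 3.23 at chronic 24 h and was at 0.07 at chronic 72 h. Ccn3 had the largest log2 rise of this list in both 24 h groups (5.98 and 7.14), from a healthy level near 0 that leaves its size uncertain. It stood at 0 to 0.59 CPM in healthy, 12.3 to 27.8 in acute 24 h and 7.94 to 71.8 in chronic 24 h libraries. Ccn2 was at 1.71 at acute 72 h (adjusted p = 0.133, edgeR; mean 1140 CPM ± 379 against 348 ± 203 in healthy, SD, n = 4 each). Ccn5 was at -0.14 at acute 24 h and rose by 4.71 at 72 h. Osteopontin (Spp1) rose by 5.44 at acute 7 d and by 3.70 at chronic 24 h. Tenascin R (Tnr) fell in all 6 groups, by 2.35 to 4.02, from a healthy mean of 5.22 CPM ± 1.13 (SD, n = 4), and Smoc1 fell by 2.83 at acute 24 h.

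Of 24 receptors and binding partners 22 were tested. At acute 24 h 4 rose and 4 fell, where 9.41% of all genes were called higher and 12.5% lower. Among them Itga5 (3.30), the fibronectin receptor subunit, and Sdc4 (3.22), a heparan sulfate co-receptor, rose, and Itga8 (-3.04) and Itga6 (-2.73) fell. Itga6 was near the floor and its ranges overlapped, at 0.39 to 2.95 CPM in healthy and 0 to 0.608 in acute 24 h libraries. Both Itga5 (3.02) and Sdc4 (2.26) rose again at chronic 24 h, where 6 rose and 2 fell (background 11.2% higher and 8.11% lower). Neither Itga5 (-0.11) nor Sdc4 (0.13) was called at 14 d. The thrombospondin receptor Cd47 was called in no group against healthy (-0.91 to 0.16). Cd36, which macrophages and endothelial cells also express, rose at acute 7 d (2.27) and chronic 24 h (2.44). Its chronic 24 h libraries ran from 3.07 to 142 CPM, across the healthy range of 6.98 to 15.3, and the chronic 14 d libraries, at 33.3 to 44.9 CPM, all lay above healthy without a call (1.83, adjusted p = 0.0589). Itga4, an integrin of leukocytes as well, rose by 3.48 at acute 7 d and by 2.55 at chronic 24 h, the groups in which 9 and 8 of 10 macrophage markers rose. The part of such cells in these rises was not tested. Itga4 was low, and its chronic 24 h libraries (2.19 to 13.5 CPM) overlapped the healthy ones (0 to 3.2 CPM). Itgb3 rose by 1.24 at acute 24 h and fell in 4 of the other 5 groups, by up to 2.41 at chronic 72 h.

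The 15 matrix assembly partners were all tested, and 3 rose and 2 fell at acute 24 h, 8 and 1 at 72 h and 11 and 0 at 7 d (medians -0.24, 1.20 and 1.80). Of all genes 9.41%, 8.23% and 9.23% were called higher and 12.5%, 4.33% and 5.64% lower. In the chronic groups 9, 10 and 5 rose at 24 h, 72 h and 14 d (medians 1.19, 1.66 and 0.68), and 1 fell, Dcn at 24 h. There 11.2%, 7.88% and 4.55% of all genes were called higher and 8.11%, 4.20% and 1.17% lower. Lox, the collagen crosslinking enzyme, had the largest rise at acute 24 h (4.03), ahead of Col12a1 (3.91), a fibril-associated collagen. Lox (6.41), Ltbp2 (5.52) and Fbln2 (5.48), a fibulin that binds fibronectin, led the list at chronic 24 h. Col1a1 was highest against healthy at acute 7 d (5.34), as were Thbs2, Thbs3 and Sparc. For each of them the next group overlapped acute 7 d, and for Thbs2 (0.27), Thbs3 (0.58) and Sparc (0.06) that difference was not called. Eln (-1.59) and Fbln1 (-1.25) fell at acute 24 h, as did Thbs2. Vascular smooth muscle markers, which activated HSCs share, moved with the chronic 24 h peak: 4 of 6 rose against healthy (median log2 3.13), with Myh11 at 10.9 to 101 CPM against 3.55 to 10.4, while the summed level of the 6 overlapped (295 to 640 against 395 to 594 CPM) and consisted mostly of Smtn. Of 7 tested portal fibroblast and mesothelial markers 4 rose there, to a sum of 126 to 252 CPM against 27.4 to 46.8. Platelets carry thrombospondin 1, and 8 of their markers summed to 91.1 to 112 CPM in healthy and 33.4 to 54.4 in chronic 24 h libraries, mostly Itga2b. Ppbp and Treml1 had no count in healthy libraries and 7 and 0 counts in the 4 chronic 24 h libraries, and Pf4 stood at 8.39 to 14.2 and 7.94 to 26.4 CPM. The part of these cells in the levels of the 10 genes was not tested.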

How the data were processed

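RNA of freshly isolated mouse HSCs was sequenced in 27 libraries of 7 groups. The study reports single-end reads, quality control and trimming with FastQC, mapping by STAR against GRCm38.p6, and gene assembly by StringTie. What the authors deposited is 1 table of raw counts per gene, in whole numbers and not normalized. Software versions, annotation release, strand and the way assemblies became counts are not given in the sources used here. Symbols, positions and exon lengths were taken from GENCODE M21 (GRCm38), in which 53274 of 53379 gene IDs were found. Each value column belonged to a library of the series, and no library was left out.

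Fits were made with edgeR 4.0.16 and limma 3.58.1 under R 4.3.3. The 18758 genes that passed filterByExpr were given TMM scaling factors (trimmed mean of M values), and 1 robust quasi-likelihood model of group means over all 27 libraries gave the 11 comparisons, the 21 pairs of groups used for the order of levels, and the difference of steps. A call needed an adjusted p (Benjamini-Hochberg) under 0.05 together with a change above 2-fold. CPM are TMM-scaled, log2 CPM used a prior count of 2, and TPM used all exon bases of a gene. A count of 0 allowed up to 3 counts per library, which covers counting error only. Libraries of a group differed by more than sampling noise (chi-square per degree of freedom of at least 17 between any pair). The test was tested on simulated data.

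All 10 genes entered each comparison, though not every uncalled value is printed. Genes named from the lists were mostly called ones. For each member the genes named by likeness come from the 3 with the highest correlation. Members, gene and marker lists and alternatives were chosen with earlier results of these data known. The alternatives were DESeq2 1.42.0, which the study used, its size factors within edgeR, library size alone, other filters on low counts, a model of the compared groups alone, looser thresholds, a replicate block, depth class (below or above 9 M counts) as a term, the libraries above 9 M alone, each library left out, another prior count, and lengths of the longest transcript. Figures were drawn with Python 3.11.15 and matplotlib 3.10.9.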

Additional observations from a re-analysis of the deposited data

Results flagged for a closer look

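The step from 24 h to 72 h differed between the chronic and the acute course for 4 genes by a test of the difference in 1 model (log2, chronic minus acute): Thbs2 at -2.07, Postn at -1.21, Tnc at -2.66 and Fn1 at -2.29. The other 6 differences did not pass the threshold. The comparison of steps was chosen after the data had been seen.

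In 6 of 58 sets of 4 libraries (1 gene in 1 group) a library stood apart from the other 3 by the gap criterion of Dixon, which about 1 in 20 sets meets by chance. Thbs1 had a highest library of 1150 CPM in chronic 72 h, where the other 3 lay between 781 and 835. Thbs3 had one of 20.4 CPM in the same group, in another replicate, against 15.5 to 16.3. For Postn the highest acute 7 d library was at 707 CPM against 615 to 629, and for Sparc at 6160 CPM against 3800 to 3950, both in replicate 3. Thbs4 was flagged at 0.852 CPM in acute 72 h and at 0.64 CPM in chronic 24 h, where the other 3 libraries held 0. Any count above 0 meets the criterion in such a set, so the rate of 1 in 20 does not apply to the Thbs4 flags. Without acute 7 d replicate 3 the Sparc call at 7 d was lost (0.99).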

How the results depend on the processing

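Of 49 calls in the 11 comparisons, without Thbs4, 10 were lost under at least 1 alternative or with 1 library left out, and the others held. Thbs4, which the filter admitted through acute 7 d alone, is left out of that count and included in the counts of genes called below. Of 230 recomputed counts of genes called 223 stayed within 1.5 times the reported one. No share of all genes called was computed under the alternatives, so the counts that follow have no background beside them. With library size alone the count for chronic 14 d against chronic 24 h was 3. With no fold minimum the counts were 7 for acute 72 h against healthy, 8 for acute 7 d against acute 24 h and 4 for chronic 72 h against chronic 24 h, which follows from the looser rule. For chronic 72 h against healthy the count was 8 with depth class as a term and 8 among libraries above 9 M, and among the latter that of the step from 24 h to 72 h was 2, with fewer libraries. The comparison of steps and its alternatives were chosen after the data had been seen.

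Signs changed for 12 of 110 fold changes, none of them called and none above 0.47 in size. Sparcl1 in acute 24 h against healthy (0.02) was -0.0040 with the size factors of DESeq2, -0.010 with DESeq2, and -0.080 to 0.10 with libraries left out in turn. Postn in the same comparison (-0.05) was 0.012 with no filter, 0.024 with the 2 groups alone, 0.063 with the replicate block and -0.309 to 0.122 with libraries left out. With depth class as a term Postn (0.275) and Sparc (0.757) in chronic 14 d against healthy and Postn (0.119) in chronic against acute 72 h turned positive. Sparc from chronic 24 h to 72 h was 0.033 with library size alone, 0.108 among libraries above 9 M and -0.515 to 0.234 with libraries left out. Among libraries above 9 M the chronic against acute 72 h values were 0.161 (Postn), 0.119 (Sparc) and 0.052 (Fn1), and with libraries left out they ranged from -0.26 to 0.091 (Postn), -0.337 to 0.033 (Fn1) and -0.285 to 0.334 (Tnc). Other ranges across zero with libraries left out were -0.012 to 0.428 (Thbs3, acute 24 h against healthy), -0.062 to 0.435 (Sparc, chronic against acute 24 h) and -0.155 to 0.277 (Thbs2, chronic 72 h against 24 h). The cause of these changes was not tested.

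Whether same-numbered libraries of different groups belong together is not stated. Their deviations from group means correlated between -0.172 and 0.172, and in no comparison did every pair exceed 0.1. In chronic against acute 72 h all pairs were positive (0.0575 to 0.172). There 7 of 8 libraries correlated best with their own number, and in chronic 72 h against 24 h 5 of 8 (0.0638 to 0.155). A link between same-numbered libraries can thus be neither shown nor excluded there. With the replicate number as a block the counts against healthy were 3, 4 and 7 in acute 24 h, 72 h and 7 d, the last with Thbs4. In the chronic groups they were 7, 5 and 2 at 24 h, 72 h and 14 d. Thbs2 in chronic 14 d (0.99), Postn in chronic against acute 24 h (0.99) and Sparc from chronic 24 h to 14 d (-1.05, adjusted p = 0.0509, edgeR) lost their calls. A prior count of 0.5 moved log2 CPM by at most 0.073 for the 9 genes other than Thbs4. Depth limits Thbs3 and the zeros of Thbs4, and in chronic 14 d it cannot be told apart from the group.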
